A study of Mus musculus with 6 samples.

Results

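The tumour suppressor gene Trp53 and 9 of the genes that its product p53 is known to activate (Cdkn1a, Mdm2, Ccng1, Phlda3, Trp53inp1, Bax, Bbc3, Aen and Zmat3) were followed in mouse beige adipocytes. Members were chosen by gene name, with earlier results of these data known, and all 10 were found among the 13962 genes of the count table, each with a single row. The cells came from preadipocytes of C57BL/6 inguinal white fat that were immortalized with the large T antigen, and every library carried 2 floxed Tle3 alleles and CreERT2, a Cre recombinase that works only when tamoxifen is bound. TLE3 is a transcriptional co-repressor. All cells were differentiated with insulin (20 nM), T3 (1 nM) and rosiglitazone (1 uM) besides an inducing cocktail, and were harvested on day 10. On day 4, for 24 hours, the cells of 3 libraries received ethanol (controls) and those of 3 received 4-hydroxytamoxifen at 500 nM to delete Tle3 (labelled knockout). The labels give neither the promoter of CreERT2 nor the number of lines, nor do they say that replicates were separate cultures, and the p-values measure the spread between libraries, which may be technical. Tamoxifen was given in the absence of Cre to no sample here, so that tamoxifen, Cre activity and the loss of Tle3 cannot be told apart.

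The transcription factor p53 is held at low levels by the ubiquitin ligase MDM2 and accumulates when DNA is damaged. It then switches on genes that stop the cell cycle, trigger cell death, repair DNA or damp the response itself, and Cre recombinase is a known source of DNA breaks at high activity. The large T antigen of SV40 binds p53 and blocks its activation of target genes, and cells immortalized with it carry much stabilized, bound p53. The labels do not say from which virus the antigen came, and p53 protein was not measured here.

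Total counts ran from 14606228 to 19294632 per library. Levels are given as CPM, the count scaled to the size of its library. Tle3 itself stood at 151.4, 151.3 and 152.1 CPM in the 3 controls and at 286.9, 288.9 and 294.2 CPM in the libraries labelled knockout, a rise against the direction of the label (log2 fold change 0.94, SE 0.038). A floxed gene keeps part of its exons after Cre has acted, and the deposited count is over the gene as a whole, so it cannot check the labels, on which all directions below rest. Adipocyte markers were abundant: 8 of them summed to between 6409 and 7992 CPM in controls and between 7769 and 9385 CPM in the libraries labelled knockout. Most of each sum came from Fabp4 (3761 to 5978 CPM over all libraries), which did not pass (edgeR adjusted p 0.165). Of other cell types, 4 epithelial markers were not listed in the table, and the macrophage markers summed to between 3.655 and 5.393 CPM over all libraries, with Adgre1 and Ptprc not listed. The endothelial markers summed to between 1.963 and 3.554 CPM, with Cdh5 and Cldn5 not listed. The smooth and skeletal muscle markers summed to between 1196 and 1423 CPM, nearly all of it from the smooth muscle actin gene Acta2 (1178 to 1406 CPM), which fibroblasts in culture also express; Ckm and Myh4 were not listed, and the 3 tested muscle markers did not pass the test.

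Because p53 acts through DNA elements near its targets, the start regions of the members were searched for the p53 consensus decamer. Its pattern reads the same on both strands, and a single decamer is only a part of such an element. RefSeq windows (GRCm38.p6) of 250 bases before to 50 bases after a start matched 8 members, while Trp53inp1 and Zmat3 had no entry. The decamer stood in 7 of the 12 windows of these members, against 8.36% of the 32851 windows of all genes. All members but Trp53 were chosen as known p53 targets, so a higher share was likely from the start and says nothing about these libraries. The 7 windows belong to 6 members, since 2 overlapping windows of Aen hold the same decamer. Only exact matches were marked, so decamers with a mismatch stay in lower case, and sequence outside the windows was not searched. A match describes the letters only. Shown here, with the decamers in capitals, are the 250 bases before the upstream start of Cdkn1a (chr17:29090729-29090978, plus strand) and before the start of Ccng1 (chr11:40755287-40755536, minus strand), both of which rose, and 40 bases around the decamer of Mdm2 (chr10:117710920-117710959, minus strand), Trp53 (chr11:69580269-69580308, plus strand) and Bax (chr7:45467075-45467114, minus strand), which did not pass the test.
Cdkn1a: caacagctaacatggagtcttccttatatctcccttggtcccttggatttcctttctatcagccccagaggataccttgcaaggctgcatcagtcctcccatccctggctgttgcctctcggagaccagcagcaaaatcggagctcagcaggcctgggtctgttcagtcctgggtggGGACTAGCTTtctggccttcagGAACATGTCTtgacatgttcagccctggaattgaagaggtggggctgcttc
Ccng1: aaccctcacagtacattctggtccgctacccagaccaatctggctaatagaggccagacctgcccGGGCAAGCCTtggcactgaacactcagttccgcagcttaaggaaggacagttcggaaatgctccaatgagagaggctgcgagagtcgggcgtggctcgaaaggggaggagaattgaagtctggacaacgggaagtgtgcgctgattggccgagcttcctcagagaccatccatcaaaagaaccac
Mdm2: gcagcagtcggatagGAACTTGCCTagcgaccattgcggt
Trp53: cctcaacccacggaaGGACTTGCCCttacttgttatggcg
Bax: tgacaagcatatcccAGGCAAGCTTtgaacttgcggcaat

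In Cdkn1a the decamers began 73 and 51 bases before the upstream start, which lies 2790 bases before the other RefSeq start of the gene; the window of that other start held none. In Aen a decamer began 121 bases before one start. Phlda3, which also rose, and Bbc3 had no match in their windows. The last bases of the Phlda3 window and of 2 of the 3 Bbc3 windows were found in no GENCODE transcript of the gene, so the starts used for them are uncertain.

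Of the 10 members, 3 rose in the libraries labelled knockout and 0 fell (edgeR, adjusted p under 0.05 over all genes). They were Cdkn1a, Ccng1 and Phlda3, which rose by 1.14-fold to 1.18-fold. Among all 13192 tested genes 12.3% changed, 6.91% rose and 5.44% fell. At an unadjusted p under 0.05 (edgeR), 3 members were higher and 1, Zmat3, was lower. The share of all tested genes past this unadjusted threshold was not counted, so such counts here and below lack a background. DESeq2 and limma-voom likewise called 3 members higher and 0 lower. Over all tested genes DESeq2 called 742 higher and 547 lower, and limma-voom called 906 higher and 697 lower. The median log2 fold change of the members was 0.05, with 6 above 0 and 4 below, against −0.002 over all tested genes. Their median absolute log2 fold change was 0.12, against 0.11 for all genes.

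**Figure D1:**
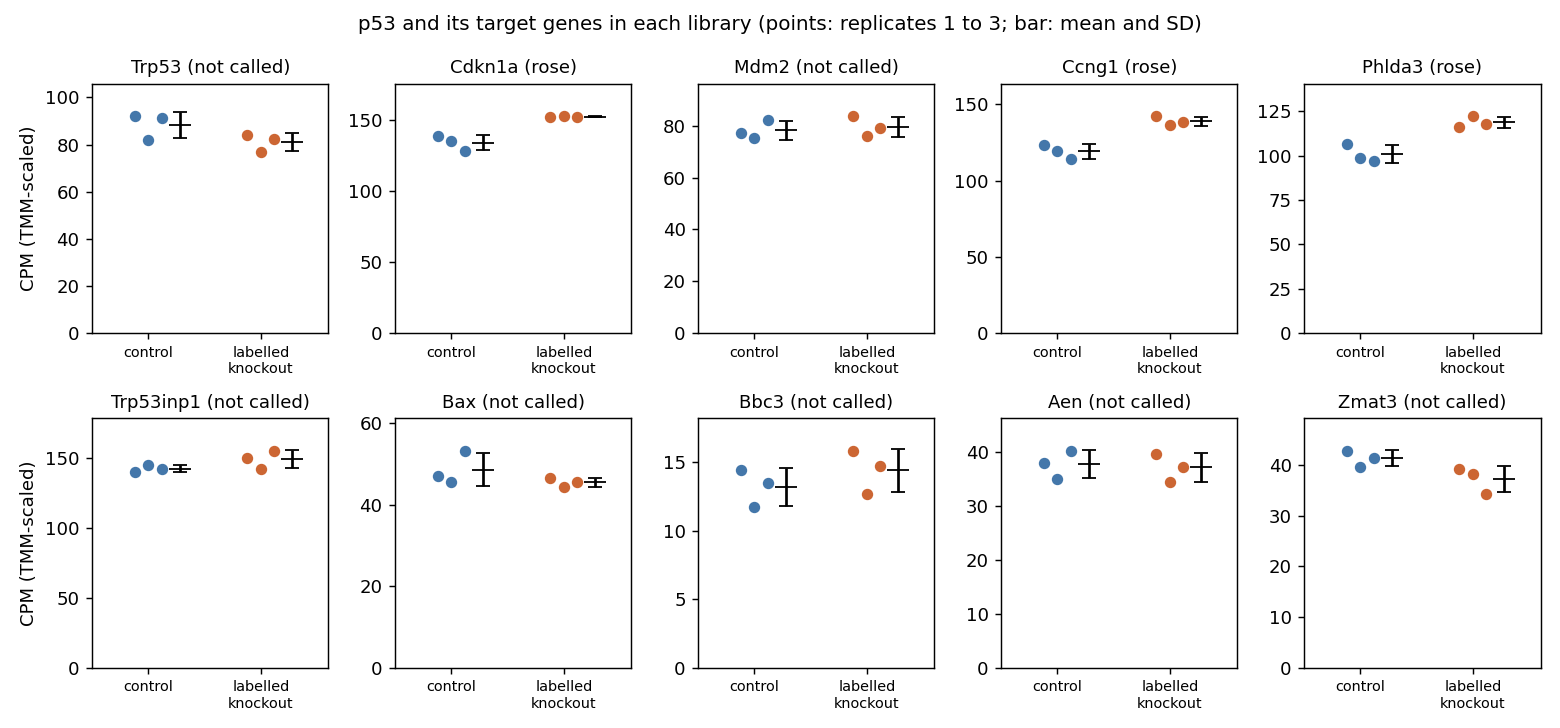
TMM-scaled CPM of the 10 members (vertical axes, each from 0) in the 3 control libraries (blue) and the 3 libraries labelled knockout (orange), with mean and SD as black bars. Cdkn1a, Ccng1 and Phlda3 lie higher in every library labelled knockout than in any control, while the groups of Trp53, Mdm2, Trp53inp1, Bax, Bbc3 and Aen overlap.

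Trp53 encodes the factor itself. It stood at 92.03, 81.76 and 91.12 CPM in the 3 controls and at 84.24, 76.81 and 82.37 CPM in the libraries labelled knockout. Control 2 lay below 2 of the libraries labelled knockout, so the groups overlapped. Mean levels of Trp53 were 88.3 ± 5.68 and 81.14 ± 3.86 CPM (SD, 3 libraries each), and the log2 fold change of −0.12 (SE 0.057, 95% interval −0.25 to 0.00) did not pass (adjusted p 0.187). By exact permutation of the libraries (two-sided) p was 0.3, where 3 against 3 libraries allow no value under 0.1.

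Cdkn1a encodes p21, the inhibitor of cyclin-dependent kinases through which p53 arrests the cell cycle. It stood at 139.2, 135.1 and 128.3 CPM in controls and at 152.5, 152.9 and 152.5 CPM in the libraries labelled knockout. All 3 of the latter lay above every control, and they lay closer together than the controls. The gene rose 1.14-fold (log2 0.19, SE 0.043, 95% interval 0.09 to 0.28; adjusted p 0.0175). The call was lost without knockout 2 (adjusted p 0.0581) or without knockout 3 (0.0778), with log2 fold changes of 0.18 and 0.19. An annotated transcript on the opposite strand shares 273 of 3553 exonic bases of Cdkn1a, and whether strand was used in the counting is not given in the sources used here.

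The other members that rose act on the p53 circuit or on survival signalling. Ccng1, which encodes cyclin G1, a partner of protein phosphatase 2A that acts back on MDM2, stood at 123.5, 119.5 and 114.2 CPM in controls and at 142.2, 136.1 and 138.1 CPM in the libraries labelled knockout. Every library labelled knockout lay above every control. Ccng1 rose 1.17-fold (log2 0.22, SE 0.044, 95% interval 0.13 to 0.32; adjusted p 0.00894). Phlda3 encodes a pleckstrin homology domain protein that competes with the kinase AKT for membrane lipids. Its values were 106.4, 98.7 and 97.1 CPM in controls and 116, 122.2 and 118 CPM in the libraries labelled knockout, again with no overlap. It rose 1.18-fold (log2 0.24, SE 0.048, 95% interval 0.13 to 0.34; adjusted p 0.00956). Both calls were kept in all 12 alternative fits, with adjusted p of at most 0.0457 for Ccng1 and 0.046 for Phlda3.

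**Figure D2:**
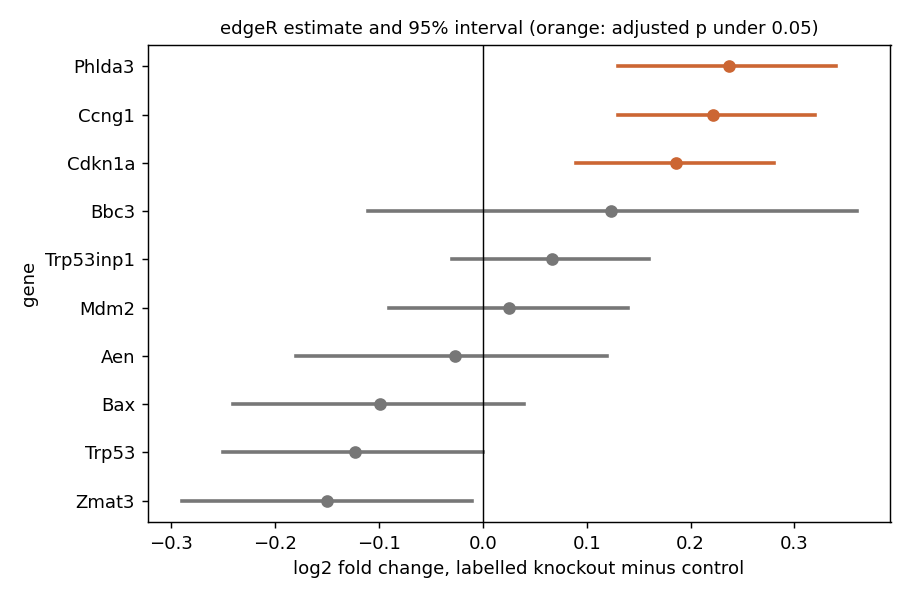
Log2 fold change of each member (points) with its 95% interval (lines), libraries labelled knockout minus controls, from the edgeR fit over all genes. Estimates run from −0.15 for Zmat3 to 0.24 for Phlda3, and orange marks the 3 genes that passed the threshold.

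Mdm2, the ubiquitin ligase that p53 induces and that in turn degrades p53, is among the most used readouts of p53 activity. It stood at 77.2, 75.2 and 82.4 CPM in controls and at 83.7, 76.2 and 79.1 CPM in the libraries labelled knockout, and the groups overlapped. Its log2 fold change was 0.02 (SE 0.053, adjusted p 0.807), and the 95% interval ran from −0.09 to 0.14, or from 0.939-fold to 1.1-fold. The upper end of this interval lies close to the lower end of that of Ccng1 (0.13), and a difference between members was not tested.

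Members of the cell death arm did not pass in either direction. Bax, which encodes the pore-forming protein of the outer mitochondrial membrane, stood at 46.97, 45.55 and 53.14 CPM in controls and at 46.45, 44.25 and 45.54 CPM in the libraries labelled knockout (log2 −0.10, SE 0.062; adjusted p 0.329). Control 3 was the high library, and without it the log2 fold change was −0.02. A neighbouring gene model on the same strand shares 192 of 1576 exonic bases of Bax in GENCODE M21, whose build differs from the authors'. Whether this affected the deposited counts of Bax was not tested. Bbc3 encodes PUMA, which frees BAX to act, and was the least abundant member in CPM, at 14.4, 11.7 and 13.5 CPM in controls and 15.8, 12.7 and 14.7 CPM in the libraries labelled knockout (log2 0.12, SE 0.106; adjusted p 0.499). Its lowest count in a library was 173, for which counting error alone is 7.6%, and its interval from −0.11 to 0.36 was the widest of the 10. Aen, an exonuclease gene of apoptosis, stood at 38.0, 35.1 and 40.2 CPM in controls and at 39.7, 34.4 and 37.2 CPM in the libraries labelled knockout (log2 −0.03, SE 0.069; adjusted p 0.845). In all 3 genes the groups overlapped.

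Of the remaining members, Trp53inp1 encodes a stress protein that works with p53 and in autophagy. It stood at 139.6, 145 and 141.8 CPM in controls and at 150, 141.9 and 154.7 CPM in the libraries labelled knockout (log2 0.07, SE 0.044; adjusted p 0.355). Knockout 2 lay among the controls. Zmat3, a zinc finger protein gene whose product binds RNA, stood at 42.75, 39.6 and 41.45 CPM in controls and at 39.16, 38.16 and 34.29 CPM in the libraries labelled knockout. Its groups did not overlap, yet the gap between control 2 and knockout 1 was narrow, and the test did not pass (log2 −0.15, SE 0.062; adjusted p 0.14). Groups without overlap were found for 4 of the 10 members and for 31.8% of all tested genes.

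The authors' deposited FPKM values, rounded to whole numbers, allow a comparison of levels between genes per length. Phlda3 (63 to 78) and Cdkn1a (59 to 69) were the highest members in these 6 libraries, with overlapping ranges. Ccng1 (33 to 41) and Bax (33 to 40) followed, again overlapping, and then Trp53inp1 (22 to 24) and Trp53 (19 to 23), whose ranges also met. Mdm2 stood at 15 to 17. Bbc3 at 6 to 8 and Aen at 6 to 7 overlapped, and Zmat3 was the lowest at 4 to 5. In controls the median FPKM of Cdkn1a was 60 and that of Trp53 was 23.

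**Figure D3:**
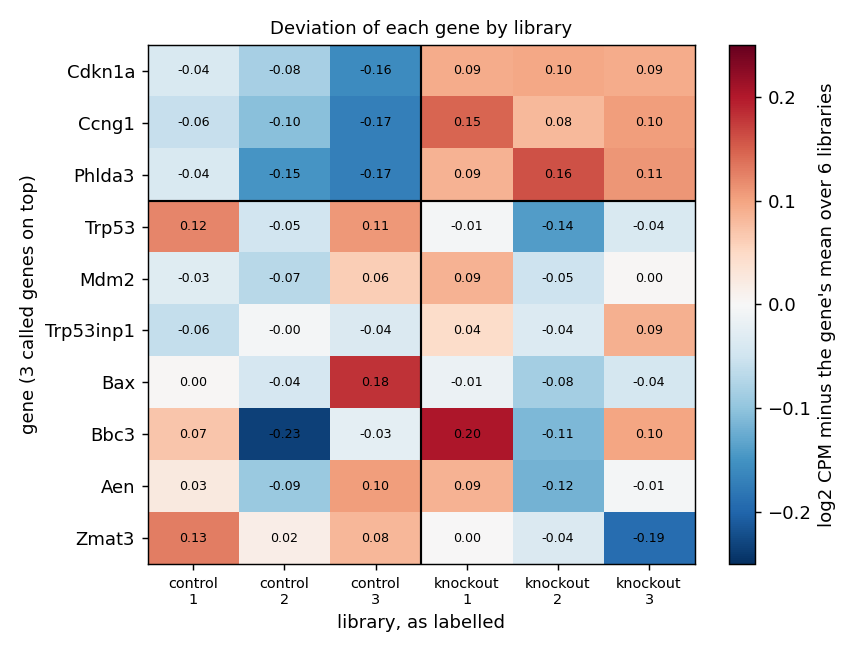
Log2 CPM of each member minus its own mean over the 6 libraries (colour and printed value), with the 3 members that rose in the top rows and the controls in the left columns. The top rows, picked because they rose, are below 0 in all controls and lowest in control 3, and above 0 in all libraries labelled knockout.

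The 3 members that rose followed one order among the controls. Their median deviation from their own mean was −0.04, −0.10 and −0.17 (log2 CPM) in the 3 controls and 0.09, 0.10 and 0.10 in the libraries labelled knockout. The split between the groups restates the calls by which these 3 were picked. Control 3 was the lowest control for all 3, as it was for 36.1% of all tested genes. It also had the lowest sum of adipocyte markers, 6409 CPM against 7992 and 7902 CPM in controls 1 and 2. Its sum of 6 thermogenic markers was also the lowest, 489.9 CPM against 557.9 and 585.2 CPM. The thermogenic markers summed to 810.8, 947.3 and 918.7 CPM in the libraries labelled knockout, where 5 of 6 rose and Elovl3 fell. Of 8 adipocyte markers 2 rose, Slc2a4 and Lipe. Of 8 preadipocyte and fibroblast markers 4 fell: Lum (log2 −1.04), Dcn (−1.01), Thy1 (−0.42) and Pdgfra (−0.38). Sums of the latter list were 4949 to 5925 CPM in controls and 5078 to 5230 CPM in the libraries labelled knockout. Most of these sums came from Col1a1 (3794 to 4511 CPM over all libraries), which did not pass (log2 −0.05). The part of cell composition in the rises of Cdkn1a, Ccng1 and Phlda3 was not tested, and in bulk libraries fewer cells of a type and less RNA per cell cannot be told apart. Without control 3 the log2 fold changes were 0.16 for Cdkn1a, 0.19 for Ccng1 and 0.21 for Phlda3, and all 3 still passed.

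The upstream side of the pathway showed no called change in the main fit, where 12.3% of all tested genes were called. The 22 tested regulators of p53 include the kinases Atm, Atr, Chek1 and Chek2, the MDM2 partner Mdm4 and the deubiquitinase Usp7. Of these 22, edgeR, DESeq2 and limma-voom each called 0 in either direction. Without knockout 2, edgeR called 1 higher. At an unadjusted p under 0.05 (edgeR), 0 were higher and 1, the acetyltransferase gene Crebbp, was lower. Estimates ran from log2 −0.25 for Trp53rk (edgeR adjusted p 0.419) to 0.24 for Daxx (0.218). Daxx stood at 44.89, 41.49 and 46.71 CPM in controls and at 51.32, 41.9 and 63.95 CPM in the libraries labelled knockout. Mdm4 stood at 42.18, 46.03 and 47.98 CPM in controls and at 44.52, 44.32 and 43.46 CPM in the libraries labelled knockout (log2 −0.04, adjusted p 0.678). Cdkn2a, whose ARF product holds back MDM2, stood at 170.3, 142.7 and 172.6 CPM in controls and at 157.6, 164.5 and 165.8 CPM in the libraries labelled knockout (log2 0.00; adjusted p 0.974). The groups of both genes overlapped.

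Further p53 targets outside the 10 were followed in 5 lists with 47 tested genes. Of these 4 rose and 2 fell, a share near the 12.3% of all tested genes that changed; log2 fold changes ran from −0.41 to 0.45 around a median of 0.02, and 26 were above 0. Of 8 genes of cell cycle arrest, 0 were called by edgeR, DESeq2 or limma-voom. At an unadjusted p under 0.05 (edgeR), 2, Gadd45a and Psrc1, were higher, and the share of all tested genes past it was not counted. Of 6 genes of DNA repair the same tools called 0, with 0 at an unadjusted p under 0.05. Gadd45a, a stress gene of growth arrest, stood at 47.2, 45.35 and 50.74 CPM in controls and at 52.06, 51.44 and 55.71 CPM in the libraries labelled knockout (log2 0.15; adjusted p 0.108), and Ddb2, a sensor of ultraviolet damage, at 16.72 ± 0.122 and 17.39 ± 1.16 CPM (SD, n = 3 per group; edgeR adjusted p 0.675). Medians of the 5 lists lay between −0.03 and 0.17.

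Among 10 cell death targets, Steap3, an endosomal iron reductase gene, rose and Dram1, a lysosomal membrane protein gene linked to autophagy, fell. Dram1 went from 49.79, 50.43 and 46.55 CPM in controls to 36.73, 36.3 and 37.03 CPM, a fall by 0.41 on the log2 scale (SE 0.051, adjusted p 0.00081). Every library labelled knockout lay below every control. Steap3 stood at 90.17 ± 1.7 and 100 ± 0.186 CPM (SD, n = 3 per group; edgeR adjusted p 0.0358), a call that was lost with DESeq2 (0.115), with library totals alone (0.0594), with the replicate block (0.0537) and without any 1 library (0.068 to 0.124). The death receptor gene Fas and the NOXA gene Pmaip1 did not pass (adjusted p 0.672 and 0.506).

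Of 13 targets in metabolism and redox control, 1 rose, the adenylate kinase gene Ak1, at 22.46 ± 0.49 and 26.41 ± 0.738 CPM (SD, n = 3 per group; edgeR adjusted p 0.0314), a call lost with DESeq2 (adjusted p 0.123) and without any 1 library (0.051 to 0.103). DESeq2 called 1 other gene of this list higher. Lpin1 lay just short of the threshold with edgeR (log2 0.23, adjusted p 0.0512). Sesn1 and Sesn2, stress genes that restrain mTORC1, did not pass (edgeR adjusted p 0.689 and 0.631). Of 10 secreted and other targets, Ptp4a3, a phosphatase gene, rose 1.36-fold and Sulf2, an extracellular sulfatase gene, rose 1.2-fold (adjusted p 0.00363 and 0.00578). Thbs1, which encodes the matrix protein thrombospondin 1, fell by 0.30 on the log2 scale (adjusted p 0.00866), from 3506, 3648 and 3618 CPM to 2764, 3098 and 2896 CPM. The call for Thbs1 was lost without knockout 3 (adjusted p 0.0557).

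**Figure D4:**
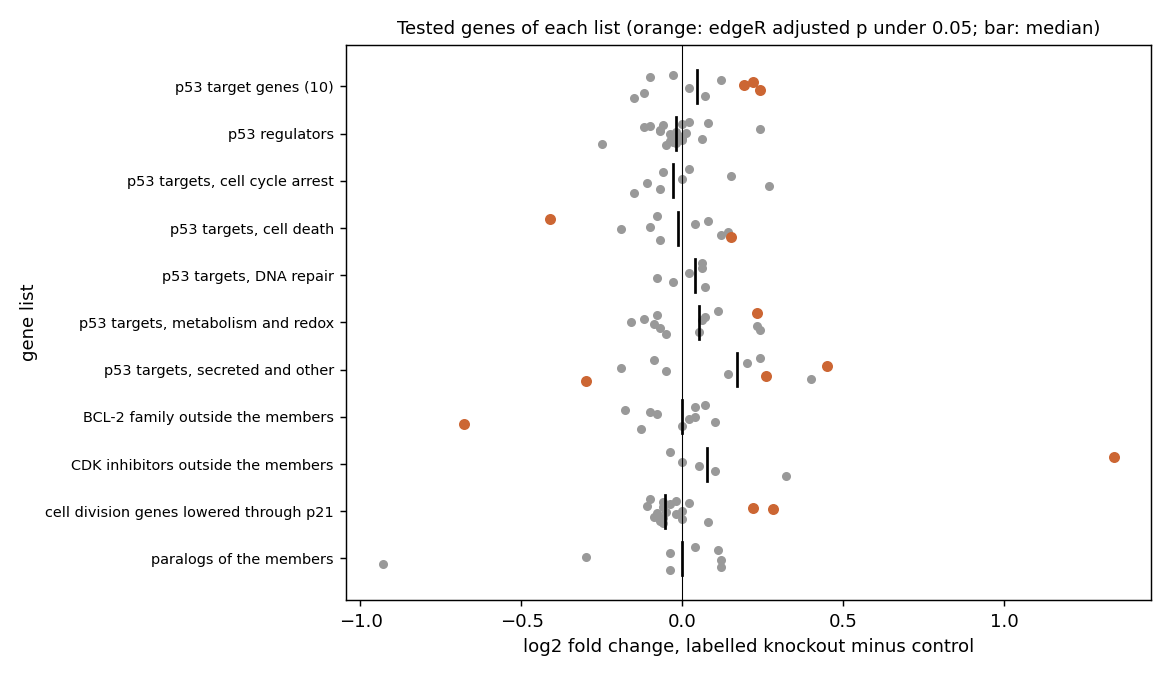
Log2 fold change (horizontal axis, libraries labelled knockout minus controls) of every tested gene in each list (rows), with called genes in orange and the list median as a bar. The 10 members span −0.15 to 0.24, and the gene farthest to the right is the CDK inhibitor Cdkn1c at 1.34.

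Among genes that work beside or below the members, calls were again about as frequent as the 12.3% over all tested genes. Of the other 6 CDK inhibitors, 1 rose: Cdkn1c, the imprinted gene of p57, with counts of 32, 34 and 14 in controls and 60, 65 and 53 in the libraries labelled knockout (log2 1.34, SE 0.297; adjusted p 0.015), lost without knockout 2 (0.0549). Of 11 BCL-2 family genes outside the members, 1 fell: Bmf, a BH3-only death gene, from 25.15, 31.07 and 25.93 CPM to 17.71, 16.32 and 17.01 CPM (log2 −0.68, SE 0.089; adjusted p 0.00116). Of 20 cell division genes that p21 is known to lower, 2 rose and 0 fell. Their median log2 fold change was −0.05, and 6 were above 0, against 6514 of all 13192 tested genes. DESeq2 called 1 higher and 0 lower, and limma-voom called 2 higher and 0 lower. With edgeR 1 gene, Mcm2, was lower at an unadjusted p under 0.05. The 2 that rose were Ccne1 (log2 0.22, adjusted p 0.0363) and Ccne2 (0.28, 0.046), the cyclins of entry into S phase. Both calls were lost without control 3, where the log2 fold changes were 0.18 and 0.19 (adjusted p 0.107 and 0.102), without knockout 2 (0.133 and 0.16) and without knockout 3 (0.0761 and 0.129). The call for Ccne1 was also lost without control 2 (0.0695) or knockout 1 (0.0717) and with DESeq2 (0.0608), and that for Ccne2 without control 1 (0.11).

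None of the 8 tested paralogs of the members was called by edgeR, DESeq2 or limma-voom. At an unadjusted p under 0.05 (edgeR), for which the share of all tested genes was not counted, 2 were lower. These were Trp63, a p53 family gene with 6 to 30 counts per library (log2 −0.93, SE 0.325; adjusted p 0.0867), and Phlda1 (−0.30, adjusted p 0.0726), a relative of Phlda3 that stood at 22.16, 23.83 and 29.25 CPM in controls and at 21.32, 20.46 and 19.29 CPM in the libraries labelled knockout. Phlda1 passed the threshold without control 1 (log2 −0.38; adjusted p 0.0482), and without control 3 its log2 fold change was −0.17 (adjusted p 0.243). Ccng2 stood at log2 0.11 (adjusted p 0.419), Trp53inp2 at 0.12 (0.193), Bak1 at 0.04 (0.685), Zmat1 at 0.12 (0.611) and Zmat2 at −0.04 (0.693). Trp73 and Phlda2 were not listed in the table.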

How the data were processed

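Per the file headers, the authors deposited read counts per gene for 6 libraries, which are whole numbers. Beside them the authors deposited FPKM values rounded to whole numbers, treated here as a score and used only to compare levels between genes. Per the submitters' processing notes, Novoalign 2.8, Picard, DESeq2 and the build mm9 were used, without roles. No source used here gives the read counter or its strand setting. Counts were tested with edgeR 4.0.16 in R 4.3.3 (package expression filter, TMM scaling, quasi-likelihood test, group alone, Benjamini-Hochberg adjustment over 13192 genes; 770 were set aside). SE is the log2 fold change over the square root of F. The scripts were tested on simulated data. Libraries of a group differed beyond sampling noise (chi-square per degree of freedom 2.88 to 7.53).

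The members, gene lists and tests were chosen with earlier results of these data known. Named genes were all members, Tle3, Mdm4, Cdkn2a, all tested paralogs and, per list, up to 5 changed genes. Atm, Atr, Chek1, Chek2, Usp7, Crebbp, Daxx, Trp53rk and Gadd45a were added after their values were seen. So were Psrc1, Ddb2, Fas, Pmaip1, Sesn1, Sesn2, Lpin1 and Mcm2 and the markers. Mdm4, Bak1 and Cdkn2a each stand in 2 lists. Alternatives were DESeq2 1.42.0, limma-voom (limma 3.58.1), 2 other scalings, no filter, the replicate block and leaving out each library. Sequences are from RefSeq. GENCODE M21 gave shared exons; its build differs from the authors'.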

Additional observations from a re-analysis of the deposited data

How the results depend on the processing

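Over 12 alternative fits, 3 or 2 members rose and 0 fell. Other scalings moved the median of all genes by less than 0.02 on the log2 scale. Mdm2 changed sign without control 2 or knockout 1 (log2 from −0.01 to 0.07 over the fits without 1 library), as did Aen without control 3 or knockout 2 (−0.08 to 0.02), Mdm4 without control 3 (−0.09 to 0.00), Bak1 (−0.00 to 0.08) and Zmat1 (−0.03 to 0.20) without knockout 1, and Cdkn2a without control 2, knockout 2 or knockout 3 (−0.08 to 0.06) and with library totals alone or upper-quartile factors (−0.01 in both); none of these passed in any fit. Same-numbered libraries did not deviate together in every pair (correlations −0.0396, 0.191 and 0.0308), so the numbers were not taken as pairs. With the replicate block 0 cell death targets, 2 metabolic targets and 3 secreted and other targets rose, against 1, 1 and 2. The block left the calls of the 10 members as they were. Cell death targets that rose also numbered 0 with DESeq2 and with library totals alone, metabolic targets 2 with library totals alone, and cell division genes 1 with DESeq2. Without 1 library, risen genes numbered 0 to 1 among regulators, cell death targets, metabolic targets, other CDK inhibitors and cell division genes. Among secreted and other targets 2 to 3 rose. Fallen genes numbered 0 to 1 among secreted targets and paralogs. Over all genes 332 to 1025 rose and 289 to 870 fell, fewest without knockout 3. The cause of these differences was not tested. Counting error in the smallest library of a member ran from 2.21% (Trp53inp1) to 7.6% (Bbc3).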

Other observations

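Replicate 2 was often the low library of its group. Control 2 was the lowest control for 6 of the 10 members (Trp53, Mdm2, Bax, Bbc3, Aen and Zmat3), and knockout 2 was the lowest of its group for 7 (Trp53, Mdm2, Ccng1, Trp53inp1, Bax, Bbc3 and Aen). Over all tested genes the shares were 35.9% for control 2 and 34.4% for knockout 2. Trp53, Mdm2, Bax, Bbc3 and Aen were low in both. With the replicate block the adjusted p of Trp53 was 0.115, still short of the threshold.

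The coefficient of variation of Cdkn1a was 0.163% among the libraries labelled knockout and 4.1% among controls. The former lay below the counting error of 2.24% at the lowest count of the 6 libraries, 1996 in control 2. Counts in the libraries labelled knockout were 2446, 2212 and 2277.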
